A study of Mus musculus with 11 samples.

Results

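The 42 genes described here encode the non-collagen part of the extracellular matrix: laminins and other basement membrane proteins, fibronectin and elastic fibre proteins, matricellular proteins, proteoglycans, and enzymes and inhibitors that remodel the matrix. They were picked out by symbol, by a rule that uses no measured value, and are 42 of the 55385 genes in the count table. The list was, however, chosen with earlier results of these data known. Their RNA was sequenced in whole mouse gastrocnemius, a calf muscle, dissected after 36 h of fasting. Both ZEB genes were studied with floxed alleles deleted by HSACre, in which the HSA skeletal actin promoter drives Cre recombinase in myofibres, so other cell types of the muscle are not targeted. The 4 groups were ZEB1 flx/flx (control), with 2 libraries numbered 2 and 3, ZEB1 flx/flx; HSACre, ZEB2 flx/flx (control) and ZEB2 flx/flx; HSACre, each with 3 libraries numbered 1 to 3. All animals were fasted and carried floxed alleles, and no group carried Cre alone, so loss of a ZEB gene and presence of Cre cannot be told apart. Each library pooled the RNA of 2 mice, and the p-values therefore reflect how pools differed. Age and sex were not given in the sources used here.

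As background, each myofibre is wrapped in a basement membrane, in which laminins polymerise on the cell surface and are tied to a collagen network by nidogens and perlecan. Outside it lies interstitial matrix, made largely by fibroblasts and fibro-adipogenic progenitors, in which fibronectin, fibrillin and elastin fibres, small proteoglycans and matricellular proteins set stiffness and growth factor storage. Lysyl oxidases cross-link this matrix, and metalloproteinases and their tissue inhibitors (TIMPs) control its breakdown. Both ZEB proteins bind DNA through zinc fingers at E-box motifs and are known mainly for repressing epithelial genes.

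Depth was 27.3 M to 46.3 M counts per library, and all 42 genes passed the filter on low counts with which 15416 genes were tested. Levels below are CPM, in which a gene's counts are scaled to a common library total and TMM corrects for library composition. Zeb1 measured 41.2 and 51.1 CPM across ZEB1 controls against 28.4, 28.6 and 30.4 CPM in the ZEB1 knockouts, and Zeb2 measured 24.1, 23.1 and 25.8 CPM in the ZEB2 controls against 18.3, 14.4 and 17.7 CPM in the ZEB2 knockouts. Each targeted gene was thus lower in every knockout library of its line, although neither passed edgeR's test (edgeR adjusted p = 0.800 for Zeb1 and 0.0775 for Zeb2). By DESeq2 Zeb2 was called in its line (DESeq2 adjusted p = 0.00950) and Zeb1 was not (0.114). Zeb1 was higher in the ZEB2 knockouts, at 67.2, 60.2 and 76.0 CPM against 47.7, 52.1 and 43.7 CPM in their controls (edgeR adjusted p = 0.0787, DESeq2 adjusted p = 0.0131). The 10 myofibre markers summed to between 109268 and 146039 CPM. Ddx3y, a gene on the Y chromosome, had 0 counts in ZEB1_control 2, ZEB1_KO 1, ZEB1_KO 2 and ZEB2_control 3 and 58.1 to 258 CPM in the others, so the pools differed in sex. All 3 ZEB2 knockout libraries had Ddx3y reads, at 131 to 258 CPM, while the ZEB2 controls stood at 58.1, 149 and 0 CPM. The replicates' counts differed by more than sampling noise, and none was a duplicate.

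Per kilobase of exon, which allows genes to be compared, Sparc was the most abundant of the 42, at a mean of 58.7 CPM per kb over the 11 libraries. Timp3 (23.0), Timp2 (21.1), Ogn (18.0), Ltbp4 (15.9) and Lamb2 (15.7 CPM per kb) followed. Among laminin chains Lamb2 stood above Lamc1 (11.3), Lama5 (4.32), Lamb1 (2.89), Lama2 (2.61) and Lama4 (1.60 CPM per kb). Vcan (0.424) and Tnc (0.283 CPM per kb) were the least abundant. Timp1 was the most thinly covered gene, with 6 to 89 counts per library, and also varied most, 13.4-fold between its highest and lowest library. Tnc (9.85-fold), Lum (9.07-fold) and Postn (8.23-fold) followed, while Lama5 varied least, 1.44-fold.

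Because ZEB proteins bind E-boxes, the 250 bases before the RefSeq start site were searched for CACCTG on both strands (CAGGTG is the same site read from the other strand). RefSeq windows (build GRCm38.p6) were matched for 29 of the 42 genes. The motif was present in 4 of them (13.8%), against 3515 of 20922 windows over all genes (16.8%). It lay 246 and 186 bases before the start of Lama5, 182 before that of Ltbp4, 107 before that of Timp2 and 232 before that of Timp3. The sequences below show the Lama5 window, which holds 2 matches, the windows of Vcan and Tnc, which hold none and belong to 2 of the 3 members with the smallest p for the difference between the lines, and the surroundings of the match at Ltbp4 and Timp3. All are written 5′ to 3′ along the gene's strand, with the motif in capitals. They are Lama5 (chr2:180225860-180226109, minus strand), Vcan (chr13:89742513-89742762, minus strand), Tnc (chr4:64047016-64047265, minus strand), Ltbp4 (chr7:27337781-27337802, minus strand) and Timp3 (chr10:86300172-86300193, plus strand).
Lama5: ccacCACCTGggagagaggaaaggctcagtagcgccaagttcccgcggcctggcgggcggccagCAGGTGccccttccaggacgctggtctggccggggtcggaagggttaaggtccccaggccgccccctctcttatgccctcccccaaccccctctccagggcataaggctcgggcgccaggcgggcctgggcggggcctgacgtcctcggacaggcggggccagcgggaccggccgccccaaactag
Vcan: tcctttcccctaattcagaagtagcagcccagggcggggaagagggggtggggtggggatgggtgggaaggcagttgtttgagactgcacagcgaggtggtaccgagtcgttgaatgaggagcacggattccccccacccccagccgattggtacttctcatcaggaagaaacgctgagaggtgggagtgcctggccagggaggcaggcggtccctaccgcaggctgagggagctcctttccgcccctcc
Tnc: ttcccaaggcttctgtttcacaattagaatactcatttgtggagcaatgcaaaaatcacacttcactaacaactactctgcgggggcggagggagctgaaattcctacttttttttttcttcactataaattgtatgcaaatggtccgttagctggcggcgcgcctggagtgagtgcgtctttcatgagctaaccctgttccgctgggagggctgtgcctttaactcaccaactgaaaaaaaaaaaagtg
Ltbp4: ccgcccggCACCTGtccatcta
Timp3: gtgcgggcCACCTGgggccctt
A match is a description of these letters and not evidence of binding.

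The first comparison asked how the matrix genes stood after loss of ZEB1 in fasted muscle. In the ZEB1 knockouts 39 of the 42 genes were lower than in the controls, and their median log2 fold change was -0.38, against 0.0069 over all tested genes. A log2 fold change below 0 was found for 48.7% of all tested genes. No member passed at an adjusted p of 0.05 by edgeR's quasi-likelihood test (background 0%), by DESeq2 (0.11% of tested genes higher and 0.026% lower) or by limma-voom (0% higher and 0.00649% lower). At an unadjusted edgeR p under 0.05, 9 members were lower (1.6% of tested genes were) and 0 were higher. Members with such a p numbered 1 without ZEB1_control 2, 1 without ZEB1_KO 3, 4 without ZEB1_KO 1, 17 without ZEB1_KO 2, 5 with upper-quartile scaling and 20 with the Ddx3y level as a covariate. The shares of tested genes with such a p in those fits were not counted. All knockout libraries lay below both controls for 20 members, 47.6% of them, against 6.69% of tested genes, and above both for 1, Lama5 (7.19% of tested genes). By role, 9 of 10 basement membrane genes were lower (median -0.24), 9 of 10 fibronectin and elastic fibre genes (-0.40), 9 of 9 matricellular genes (-0.38), 6 of 6 proteoglycan genes (-0.34) and 6 of 7 enzyme and inhibitor genes (-0.40). In bulk RNA, fewer cells of a type and less RNA per cell cannot be told apart.

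The second comparison asked the same of ZEB2. In the ZEB2 knockouts 39 of 42 genes were again lower, and their median log2 fold change was -0.57, against -0.05 over all tested genes, of which 53.4% were below 0. By edgeR 0 members passed (background 0%), and the smallest adjusted p of any gene in the table was 0.0775. At an unadjusted edgeR p under 0.05, 28 members were lower (17.3% of tested genes were), and 15 had such a p without ZEB2_control 3, 17 without ZEB2_KO 3 and 14 with the Ddx3y covariate. DESeq2 called 17 members lower, 40.5% of the members, against 8.91% of the 13319 genes to which it gave an adjusted p, and limma-voom called 0. Throughout, shares called by DESeq2 are shares of the tested genes to which it gave an adjusted p. The 17 were Lama4, Lamb1, Lamb2, Nid1, Hspg2, Fn1, Fbn1, Sparc, Postn, Tnc, Thbs3, Matn2, Vcan, Bgn, Lum, Prelp and Loxl2. All ZEB2 knockout libraries lay below all controls for 25 members, against 22.1% of tested genes, and above all of them for 1, Lox (21.3% of tested genes). The number of DESeq2 calls changed with the libraries kept. For these fits, and for the edgeR counts with a library left out or the covariate, shares of all genes were not counted. Without ZEB2_control 1 DESeq2 called 11 members, among them Timp1 (DESeq2 adjusted p = 0.0254), which was outside the 17. It called 1 without ZEB2_control 3 (Hspg2) and 4 without ZEB2_KO 3 (Lama4, Hspg2, Fbn1 and Tnc). With the Ddx3y level as a covariate it called 0, and that covariate also moved edgeR's median to -0.31. Without ZEB2_control 3 edgeR's median was -0.48 with 40 members lower, and without ZEB2_KO 3 it was -0.44 with 39 lower. By role the lower genes were 9 of 10 in the basement membrane (median -0.51), 10 of 10 in fibronectin and elastic fibres (-0.35), 9 of 9 matricellular (-0.74), 6 of 6 proteoglycans (-0.68) and 5 of 7 enzymes and inhibitors (-0.62).

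**Figure D1:**
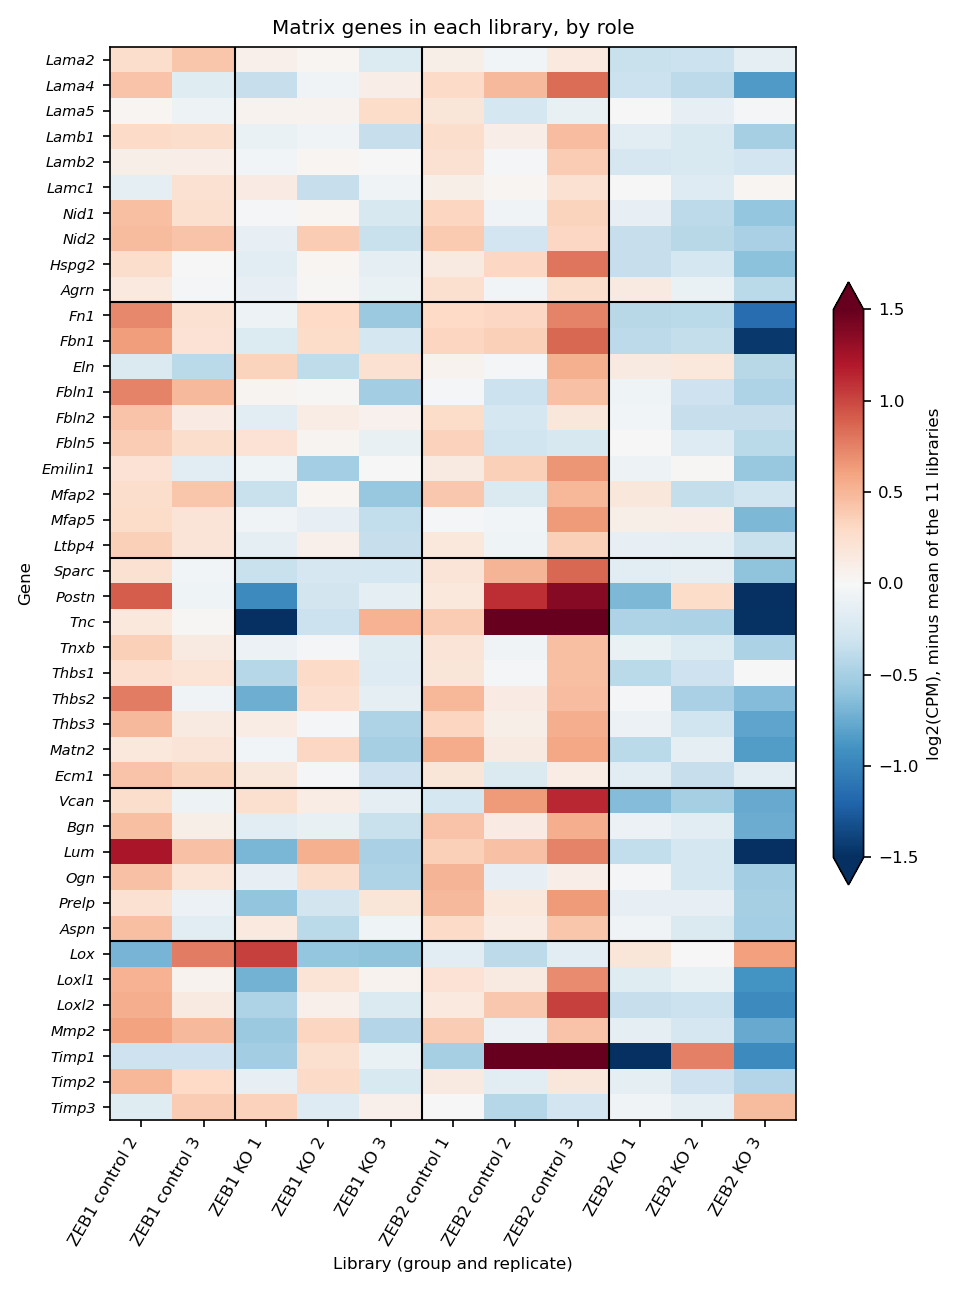
Level of each of the 42 genes (rows, grouped by role) in each of the 11 libraries (columns), as log2 CPM minus the gene's mean over the libraries. ZEB2_control 3 and ZEB1_control 2 hold the highest value for 25 and 12 genes and ZEB2_KO 3 the lowest for 27, while the highest Timp3 value is in ZEB2_KO 3.

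In the basement membrane, Lamb1, Lamb2, Nid1, Nid2 and Lama2 were lower without overlap in both lines, and Lama4 and Hspg2 in the ZEB2 line. Lama2 (ENSMUSG00000019899.17, chr10:26980036-27619758, minus strand) encodes the alpha chain of the laminin that dominates the myofibre basement membrane and is lost in a congenital muscular dystrophy. It stood at 50.7 and 56.2 CPM across ZEB1 controls against 44.5, 43.1 and 36.6 CPM across ZEB1 knockouts. Lama2 in the ZEB2 line stood at 44.9, 41.1 and 46.9 CPM across ZEB2 controls against 33.5, 33.8 and 38.5 CPM across ZEB2 knockouts. Knockouts and controls did not overlap in either line, with log2 fold changes for Lama2 of -0.37 (SE 0.14, edgeR adjusted p = 1.00) for ZEB1 and -0.33 (SE 0.12, edgeR adjusted p = 0.108) for ZEB2. Lamb1 (ENSMUSG00000002900.16, chr12:31265234-31329644, plus strand) encodes a beta chain shared by several laminins. It stood at 34.4 and 33.8 CPM across ZEB1 controls against 26.2, 27.0 and 22.1 CPM across ZEB1 knockouts. Lamb1 in the ZEB2 line stood at 33.8, 30.0 and 38.6 CPM across ZEB2 controls against 25.2, 24.0 and 19.8 CPM across ZEB2 knockouts. Every knockout library was below every control of its line, with log2 fold changes for Lamb1 of -0.44 (SE 0.16, edgeR adjusted p = 1.00) for ZEB1 and -0.57 (SE 0.14, edgeR adjusted p = 0.0775 and DESeq2 adjusted p = 0.0144) for ZEB2. With the Ddx3y covariate the ZEB2 value for Lamb1 was -0.36. Nid1 (ENSMUSG00000005397.8, chr13:13437551-13512269, plus strand) encodes nidogen, which bridges laminin and collagen IV. It stood at 131 and 114 CPM across ZEB1 controls against 95.2, 98.4 and 81.7 CPM across ZEB1 knockouts. Nid1 in the ZEB2 line stood at 120.5, 92.7 and 122 CPM across ZEB2 controls against 88.6, 73.4 and 64.4 CPM across ZEB2 knockouts. Again the groups did not overlap in either line, with log2 fold changes for Nid1 of -0.41 (SE 0.18, edgeR adjusted p = 1.00) for ZEB1 and -0.56 (SE 0.16, edgeR adjusted p = 0.0818 and DESeq2 adjusted p = 0.0240) for ZEB2. Lama4 (ENSMUSG00000019846.11, chr10:38965515-39110188, plus strand) encodes a laminin chain of vessel and nerve basement membranes. It stood at 24.6 and 16.2 CPM across ZEB1 controls against 14.5, 17.7 and 19.6 CPM across ZEB1 knockouts. Lama4 in the ZEB2 line stood at 22.4, 25.5 and 32.8 CPM across ZEB2 controls against 14.6, 14.0 and 10.2 CPM across ZEB2 knockouts. The ZEB1 groups overlapped and the ZEB2 groups did not, with log2 fold changes for Lama4 of -0.24 (SE 0.24, edgeR adjusted p = 1.00) for ZEB1 and -1.06 (SE 0.21, edgeR adjusted p = 0.0775 and DESeq2 adjusted p = 0.00160) for ZEB2. Hspg2 (ENSMUSG00000028763.18, chr4:137468769-137570630, plus strand) encodes perlecan, a heparan sulphate proteoglycan. It stood at 169 and 142 CPM across ZEB1 controls against 126, 144 and 128 CPM across ZEB1 knockouts. Hspg2 in the ZEB2 line stood at 156, 176 and 246 CPM across ZEB2 controls against 111, 118 and 92.6 CPM across ZEB2 knockouts. The ZEB2 groups were separate, with ZEB2_control 3 the highest library, and the ZEB1 groups overlapped, with log2 fold changes for Hspg2 of -0.24 (SE 0.20, edgeR adjusted p = 1.00) for ZEB1 and -0.85 (SE 0.18, edgeR adjusted p = 0.0775 and DESeq2 adjusted p = 0.00271) for ZEB2. Lamb2 (ENSMUSG00000052911.9, chr9:108479736-108490530, plus strand) encodes the beta chain enriched at the neuromuscular junction. It stood at 100.2 and 101 CPM across ZEB1 controls against 92.0, 96.6 and 93.8 CPM across ZEB1 knockouts. Lamb2 in the ZEB2 line stood at 110.5, 93.1 and 123 CPM across ZEB2 controls against 79.1, 80.5 and 77.3 CPM across ZEB2 knockouts. The ZEB2 knockouts sat within a narrow band under all 3 controls, and the ZEB1 groups were separate by a small margin, with log2 fold changes for Lamb2 of -0.10 (SE 0.14, edgeR adjusted p = 1.00) for ZEB1 and -0.46 (SE 0.13, edgeR adjusted p = 0.0787 and DESeq2 adjusted p = 0.0123) for ZEB2. Lama5 (ENSMUSG00000015647.9, chr2:180176373-180225859, minus strand), a laminin alpha chain of vessels and other basement membranes, stood at 49.9 and 46.3 CPM across ZEB1 controls against 50.8, 50.7 and 59.1 CPM across ZEB1 knockouts, and the knockouts were the higher group, with a log2 fold change of 0.16 (SE 0.15, edgeR adjusted p = 1.00). In the ZEB2 line Lama5 stood at 55.7, 40.9 and 45.4 CPM across ZEB2 controls against 49.1, 44.8 and 48.4 CPM across ZEB2 knockouts. These groups overlapped, and its log2 fold change was 0.0032 (SE 0.14, edgeR adjusted p = 0.990). Nid2, Lamc1 (the gamma chain common to most laminins) and Agrn (agrin, which clusters acetylcholine receptors) had log2 fold changes of -0.45, -0.14 and -0.13 for ZEB1 and -0.58, -0.17 and -0.27 for ZEB2. Nid2 groups did not overlap in either line.

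**Figure D2:**
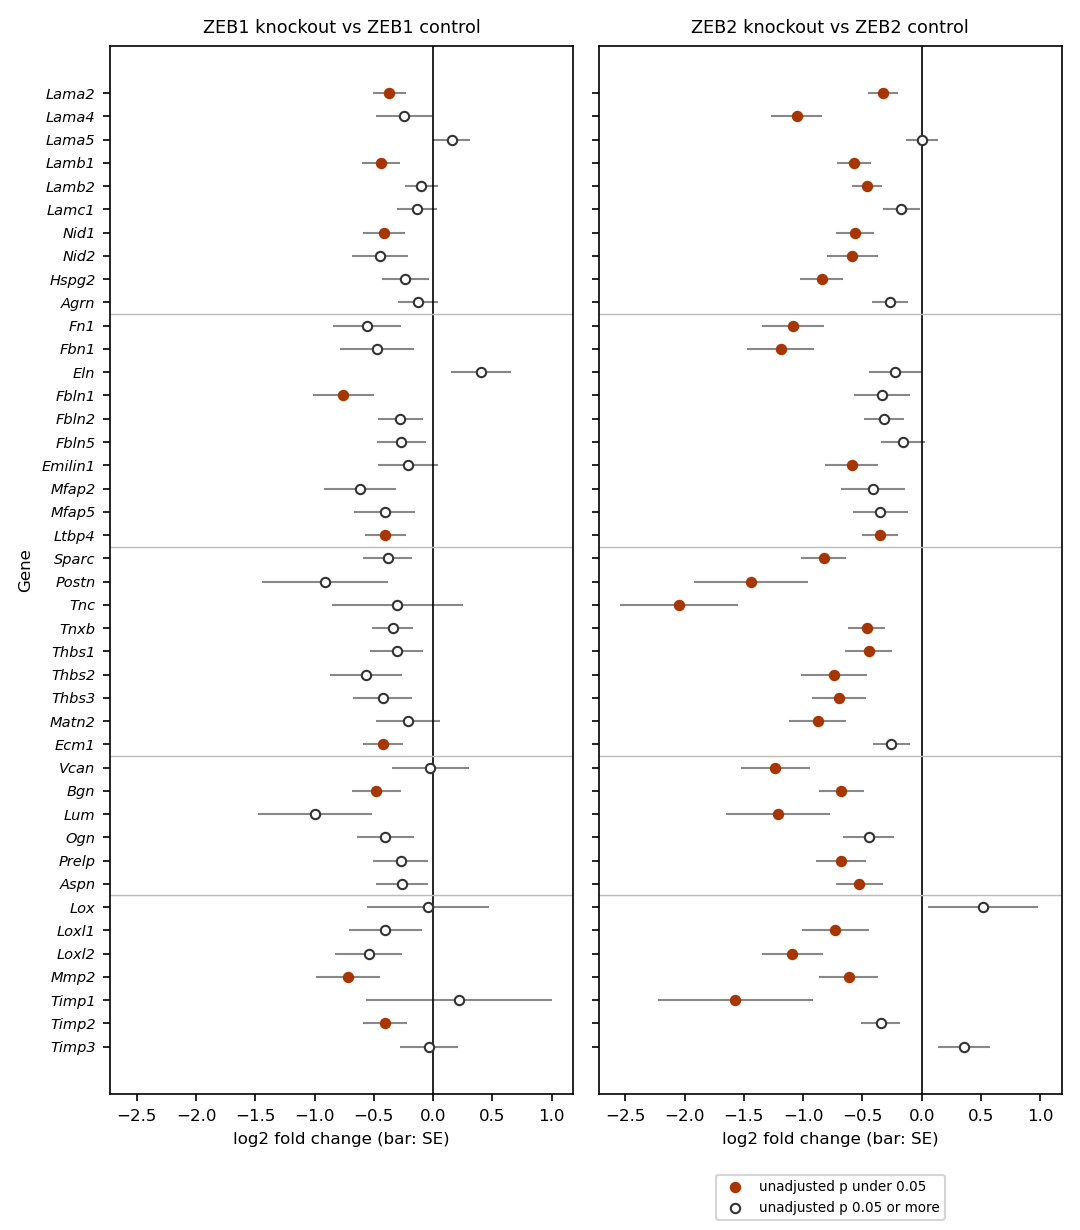
Log2 fold change (points) with its standard error (bars) for the 42 genes in the ZEB1 comparison and the ZEB2 comparison, ordered by role; filled points have an unadjusted edgeR p under 0.05. There are 9 filled points in the ZEB1 panel and 28 in the ZEB2 panel, and all lie below 0.

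Among fibronectin and elastic fibre genes, Fbln1 and Ltbp4 had the smallest p in the ZEB1 line and Fbn1 and Fn1 in the ZEB2 line. Fbln1 (ENSMUSG00000006369.14, chr15:85205949-85286535, plus strand) encodes fibulin, a calcium-binding glycoprotein that joins basement membranes and elastic fibres. It stood at 7.03 and 5.91 CPM across ZEB1 controls against 4.32, 4.25 and 2.93 CPM across ZEB1 knockouts. Fbln1 in the ZEB2 line stood at 4.11, 3.35 and 5.71 CPM across ZEB2 controls against 4.03, 3.38 and 3.04 CPM across ZEB2 knockouts. All ZEB1 knockouts were below both controls, whereas the ZEB2 groups overlapped, with log2 fold changes for Fbln1 of -0.76 (SE 0.26, edgeR adjusted p = 1.00) for ZEB1 and -0.34 (SE 0.24, edgeR adjusted p = 0.328) for ZEB2. Ltbp4 (ENSMUSG00000040488.17, chr7:27305136-27337692, minus strand) encodes a protein that holds latent TGF-beta in the matrix and modifies muscular dystrophy in mice. It stood at 131 and 116 CPM across ZEB1 controls against 92.0, 107 and 80.3 CPM across ZEB1 knockouts. Ltbp4 in the ZEB2 line stood at 113, 97.5 and 129.6 CPM across ZEB2 controls against 93.0, 92.6 and 80.6 CPM across ZEB2 knockouts. Neither line had overlapping groups, with log2 fold changes for Ltbp4 of -0.40 (SE 0.17, edgeR adjusted p = 1.00) for ZEB1 and -0.35 (SE 0.15, edgeR adjusted p = 0.137) for ZEB2. Fbn1 (ENSMUSG00000027204.13, chr2:125300594-125507993, minus strand) encodes fibrillin, the backbone of microfibrils. It stood at 72.0 and 54.3 CPM across ZEB1 controls against 40.6, 56.4 and 39.0 CPM across ZEB1 knockouts. Fbn1 in the ZEB2 line stood at 58.4, 60.1 and 85.2 CPM across ZEB2 controls against 35.6, 36.6 and 17.1 CPM across ZEB2 knockouts. ZEB2_KO 3 was lowest of all 11 libraries, and the ZEB2 groups did not overlap, while those of the ZEB1 line did, with log2 fold changes for Fbn1 of -0.48 (SE 0.31, edgeR adjusted p = 1.00) for ZEB1 and -1.19 (SE 0.29, edgeR adjusted p = 0.0775 and DESeq2 adjusted p = 0.00498) for ZEB2. Fn1 (ENSMUSG00000026193.15, chr1:71585520-71653200, minus strand) encodes fibronectin, on which fibrillin and collagen assemble. It stood at 82.8 and 58.8 CPM across ZEB1 controls against 47.9, 61.9 and 34.1 CPM across ZEB1 knockouts. Fn1 in the ZEB2 line stood at 61.7, 62.7 and 84.6 CPM across ZEB2 controls against 37.7, 38.0 and 22.9 CPM across ZEB2 knockouts. Its pattern over libraries resembled that of fibrillin, with separate ZEB2 groups and overlapping ZEB1 groups, with log2 fold changes for Fn1 of -0.56 (SE 0.29, edgeR adjusted p = 1.00) for ZEB1 and -1.08 (SE 0.26, edgeR adjusted p = 0.0775 and DESeq2 adjusted p = 0.00626) for ZEB2. With the Ddx3y covariate the ZEB2 values were -0.64 for Fn1 and -0.79 for Fbn1. Eln, which encodes elastin, was one of the 3 members above 0 in the ZEB1 line, at a log2 fold change of 0.40 (SE 0.25, edgeR adjusted p = 1.00), with knockouts at 50.7, 31.0 and 47.2 CPM against 34.5 and 30.5 CPM. It was -0.22 in the ZEB2 line (SE 0.22). The remaining 5 genes, Fbln2, Fbln5, Emilin1, Mfap2 and Mfap5, which encode proteins of elastic fibres and microfibrils, lay between -0.62 and -0.21 for ZEB1 and between -0.59 and -0.16 for ZEB2, with 0 of them called by DESeq2.

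Matricellular proteins modulate how cells contact the matrix. Sparc (ENSMUSG00000018593.13, chr11:55394500-55423183, minus strand) encodes a collagen-binding protein and was the most abundant member per kilobase. It stood at 249.8 and 208 CPM across ZEB1 controls against 169, 179.8 and 177 CPM across ZEB1 knockouts. Sparc in the ZEB2 line stood at 244, 303 and 389 CPM across ZEB2 controls against 191, 195 and 141 CPM across ZEB2 knockouts. Knockouts were below controls in both lines without overlap, with log2 fold changes for Sparc of -0.38 (SE 0.21, edgeR adjusted p = 1.00) for ZEB1 and -0.83 (SE 0.19, edgeR adjusted p = 0.0775 and DESeq2 adjusted p = 0.00426) for ZEB2. Tnc (ENSMUSG00000028364.15, chr4:63959785-64047015, minus strand) encodes tenascin-C, found at tendon junctions and in regenerating muscle. It stood at 1.94 and 1.75 CPM across ZEB1 controls against 0.585, 1.38 and 2.50 CPM across ZEB1 knockouts. Tnc in the ZEB2 line stood at 2.26, 4.93 and 5.76 CPM across ZEB2 controls against 1.25, 1.24 and 0.619 CPM across ZEB2 knockouts. ZEB1_KO 3 was above both ZEB1 controls, so that line overlapped, and in the ZEB2 line all 3 knockouts were below all 3 controls, with log2 fold changes for Tnc of -0.30 (SE 0.55, edgeR adjusted p = 1.00) for ZEB1 and -2.05 (SE 0.50, edgeR adjusted p = 0.0775 and DESeq2 adjusted p = 0.00356) for ZEB2. Ecm1 (ENSMUSG00000028108.15, chr3:95734147-95739569, minus strand) encodes a secreted matrix glycoprotein. It stood at 20.7 and 19.5 CPM across ZEB1 controls against 17.3, 15.2 and 12.4 CPM across ZEB1 knockouts. Ecm1 in the ZEB2 line stood at 17.5, 13.3 and 16.6 CPM across ZEB2 controls against 13.8, 12.2 and 13.8 CPM across ZEB2 knockouts. The ZEB1 groups were separate and the ZEB2 groups overlapped, with log2 fold changes for Ecm1 of -0.42 (SE 0.17, edgeR adjusted p = 1.00) for ZEB1 and -0.26 (SE 0.16, edgeR adjusted p = 0.258) for ZEB2. Postn, which encodes periostin, had the second largest ZEB2 difference of this role, at -1.44 (SE 0.48, edgeR adjusted p = 0.0950 and DESeq2 adjusted p = 0.0222), but its groups overlapped: 9.3, 18.1 and 21.6 CPM against 5.3, 10.1 and 2.6 CPM. Matn2, which encodes a matrilin, was at -0.88 (SE 0.24, edgeR adjusted p = 0.0787 and DESeq2 adjusted p = 0.0186) and Thbs3, a thrombospondin, at -0.69 (SE 0.23, edgeR adjusted p = 0.0907 and DESeq2 adjusted p = 0.0431) in the same comparison. Tnxb (tenascin-X), Thbs1 and Thbs2 lay between -0.74 and -0.45 for ZEB2, and the 6 genes Postn, Matn2, Thbs1, Thbs2, Thbs3 and Tnxb between -0.91 and -0.21 for ZEB1.

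Proteoglycans were lower in both lines for 6 of 6 genes. Vcan (ENSMUSG00000021614.16, chr13:89655312-89742509, minus strand) encodes versican, a large chondroitin sulphate proteoglycan. It stood at 6.84 and 5.39 CPM across ZEB1 controls against 6.75, 6.15 and 5.17 CPM across ZEB1 knockouts. Vcan in the ZEB2 line stood at 4.76, 8.86 and 12.4 CPM across ZEB2 controls against 3.64, 4.05 and 3.38 CPM across ZEB2 knockouts. The ZEB1 groups overlapped almost fully, and the ZEB2 knockouts were below all controls, with log2 fold changes for Vcan of -0.02 (SE 0.32, edgeR adjusted p = 1.00) for ZEB1 and -1.23 (SE 0.29, edgeR adjusted p = 0.0775 and DESeq2 adjusted p = 0.00576) for ZEB2. Bgn (ENSMUSG00000031375.17, chrX:73483602-73495933, plus strand) encodes biglycan, a small proteoglycan that binds collagen and the dystrophin complex. It stood at 84.6 and 65.7 CPM across ZEB1 controls against 55.0, 57.4 and 49.3 CPM across ZEB1 knockouts. Bgn in the ZEB2 line stood at 83.3, 67.6 and 90.2 CPM across ZEB2 controls against 58.3, 55.3 and 37.1 CPM across ZEB2 knockouts. There was no overlap in either line, with log2 fold changes for Bgn of -0.48 (SE 0.21, edgeR adjusted p = 1.00) for ZEB1 and -0.68 (SE 0.19, edgeR adjusted p = 0.0793 and DESeq2 adjusted p = 0.0196) for ZEB2. Lum (ENSMUSG00000036446.5, chr10:97565128-97572703, plus strand) encodes lumican, which spaces collagen fibrils. It stood at 53.9 and 31.2 CPM across ZEB1 controls against 14.3, 33.4 and 16.4 CPM across ZEB1 knockouts. Lum in the ZEB2 line stood at 29.6, 31.3 and 38.5 CPM across ZEB2 controls against 17.8, 19.1 and 5.94 CPM across ZEB2 knockouts. The ZEB1 groups overlapped through ZEB1_KO 2, and ZEB2_KO 3 was the lowest library of all, with log2 fold changes for Lum of -0.99 (SE 0.48, edgeR adjusted p = 1.00) for ZEB1 and -1.21 (SE 0.44, edgeR adjusted p = 0.105 and DESeq2 adjusted p = 0.0341) for ZEB2. Without ZEB1_control 2 the ZEB1 values were -0.56 for Lum and -0.30 for Bgn. Ogn (ENSMUSG00000021390.6, chr13:49608046-49624501, plus strand) encodes osteoglycin, the most abundant proteoglycan member per kilobase. It stood at 60.8 and 52.1 CPM across ZEB1 controls against 41.5, 54.0 and 32.5 CPM across ZEB1 knockouts. Ogn in the ZEB2 line stood at 64.2, 41.4 and 48.3 CPM across ZEB2 controls against 44.0, 37.6 and 31.4 CPM across ZEB2 knockouts. Both lines overlapped, with log2 fold changes for Ogn of -0.40 (SE 0.24, edgeR adjusted p = 1.00) for ZEB1 and -0.45 (SE 0.22, edgeR adjusted p = 0.170) for ZEB2. Prelp and Aspn, also small leucine-rich proteoglycans, were at -0.68 (SE 0.21, edgeR adjusted p = 0.0848 and DESeq2 adjusted p = 0.0341) and -0.53 (SE 0.20, edgeR adjusted p = 0.107) in the ZEB2 line and at -0.27 and -0.26 in the ZEB1 line.

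Cross-linking enzymes, proteases and inhibitors differed among themselves. Mmp2 (ENSMUSG00000031740.8, chr8:92827291-92853420, plus strand) encodes gelatinase A, a metalloproteinase. It stood at 59.5 and 54.9 CPM across ZEB1 controls against 26.6, 48.8 and 28.7 CPM across ZEB1 knockouts. Mmp2 in the ZEB2 line stood at 50.7, 36.8 and 52.6 CPM across ZEB2 controls against 35.5, 32.8 and 23.1 CPM across ZEB2 knockouts. The groups did not overlap in either line, and ZEB1_KO 2 was nearest to its controls, with log2 fold changes for Mmp2 of -0.72 (SE 0.27, edgeR adjusted p = 1.00) for ZEB1 and -0.62 (SE 0.25, edgeR adjusted p = 0.117) for ZEB2. Loxl2 (ENSMUSG00000034205.16, chr14:69609068-69695834, plus strand) encodes a lysyl oxidase-like enzyme that cross-links collagen. It stood at 14.2 and 10.7 CPM across ZEB1 controls against 7.05, 10.2 and 8.36 CPM across ZEB1 knockouts. Loxl2 in the ZEB2 line stood at 10.8, 13.0 and 19.8 CPM across ZEB2 controls against 7.64, 7.78 and 5.01 CPM across ZEB2 knockouts. The groups were separate in both lines, with log2 fold changes for Loxl2 of -0.54 (SE 0.28, edgeR adjusted p = 1.00) for ZEB1 and -1.09 (SE 0.26, edgeR adjusted p = 0.0775 and DESeq2 adjusted p = 0.00605) for ZEB2. Timp2 (ENSMUSG00000017466.9, chr11:118301069-118355740, minus strand) encodes a metalloproteinase inhibitor that also takes part in activating gelatinase A. It stood at 113 and 99.4 CPM across ZEB1 controls against 73.7, 98.3 and 68.8 CPM across ZEB1 knockouts. Timp2 in the ZEB2 line stood at 88.4, 72.0 and 90.8 CPM across ZEB2 controls against 73.4, 65.0 and 59.2 CPM across ZEB2 knockouts. Only the ZEB1 groups did not overlap, with log2 fold changes for Timp2 of -0.41 (SE 0.18, edgeR adjusted p = 1.00) for ZEB1 and -0.35 (SE 0.17, edgeR adjusted p = 0.167) for ZEB2. Timp3 (ENSMUSG00000020044.13, chr10:86300372-86349506, plus strand) encodes the inhibitor that stays bound to the matrix. It stood at 162 and 239 CPM across ZEB1 controls against 233, 160.4 and 193 CPM across ZEB1 knockouts. Timp3 in the ZEB2 line stood at 183, 136 and 149.9 CPM across ZEB2 controls against 177, 167 and 256 CPM across ZEB2 knockouts. Both lines overlapped, and the highest values were in ZEB2_KO 3, ZEB1_control 3 and ZEB1_KO 1, with log2 fold changes for Timp3 of -0.04 (SE 0.24, edgeR adjusted p = 1.00) for ZEB1 and 0.36 (SE 0.22, edgeR adjusted p = 0.265) for ZEB2. Lox (ENSMUSG00000024529.14) encodes lysyl oxidase itself. It stood at 12.5 and 34.5 CPM across ZEB1 controls against 41.5, 13.6 and 13.4 CPM across ZEB1 knockouts. In the ZEB2 line it stood at 18.2, 15.4 and 18.2 CPM across ZEB2 controls against 23.0, 20.3 and 31.1 CPM across ZEB2 knockouts, the one member whose knockouts all exceeded their controls, with a log2 fold change of 0.52 (SE 0.46, edgeR adjusted p = 0.444). Lox was high in ZEB1_control 3, ZEB1_KO 1 and ZEB2_KO 3, the libraries in which Timp3 was also high. Loxl1 was at -0.40 for ZEB1 and -0.73 for ZEB2 (SE 0.28). Timp1, at 6 to 89 counts per library, was at 0.22 (SE 0.79) and -1.57 (SE 0.65).

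**Figure D3:**
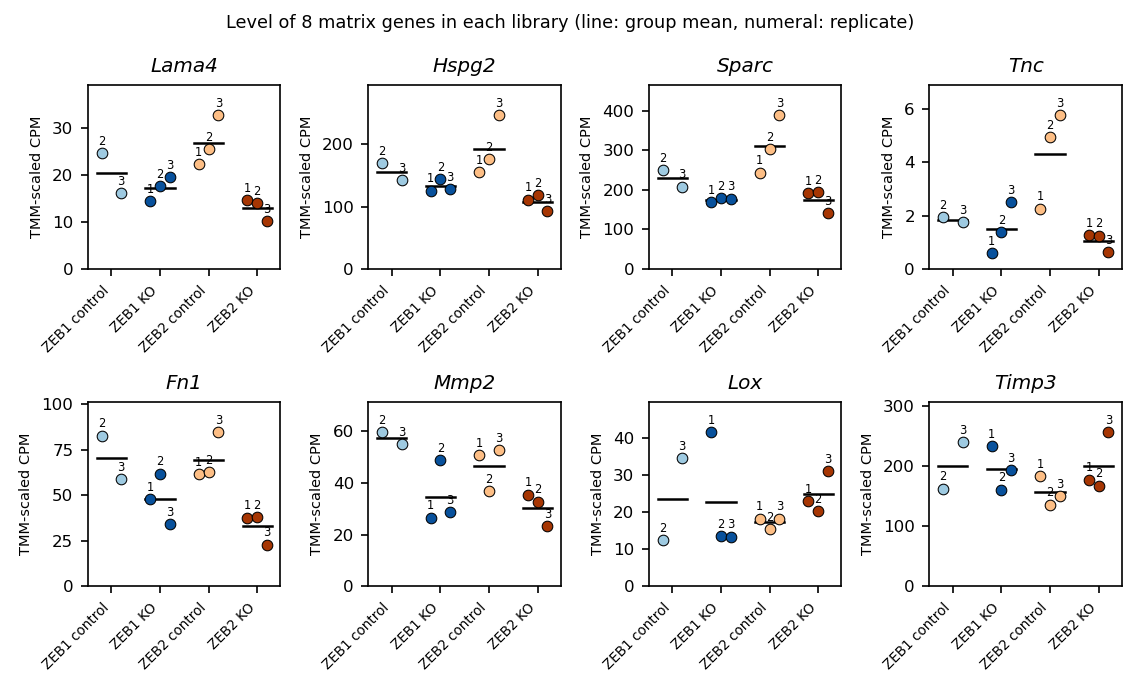
TMM-scaled CPM of 8 genes in every library by group, with numerals for replicates and a line for the group mean. ZEB2 knockouts lie under their controls for Lama4, Hspg2, Sparc, Tnc, Fn1 and Mmp2 and above them for Lox, while Timp3 overlaps.

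The 2 effects were then compared by testing the ZEB2 log2 fold change minus that of ZEB1. The difference was below 0 for 31 of 42 members, against 54.6% of tested genes, with a median of -0.16 against -0.06 over all genes. No member passed (background 0%), and 4 were lower at an unadjusted edgeR p under 0.05, against 5.09% of tested genes, while 0 were higher (4.17%). Members with such a p in either direction numbered 1 without ZEB2_control 3 or ZEB2_KO 3, 2 without ZEB1_KO 3, and 6 without ZEB2_control 1. The shares of tested genes in those fits were not counted. The median difference was -0.08 without ZEB1_control 3 and -0.27 without ZEB1_control 2, fits that leave 1 ZEB1 control. DESeq2 called 0 (0.0397% of tested genes higher and 0.0728% lower). The 4 were Vcan at -1.21 (SE 0.44, edgeR adjusted p = 0.516), Lama4 at -0.81 (SE 0.32, edgeR adjusted p = 0.516), Tnc at -1.75 (SE 0.75, edgeR adjusted p = 0.516) and Hspg2 at -0.61 (SE 0.27, edgeR adjusted p = 0.516). With the Ddx3y covariate 2 members had an unadjusted edgeR p under 0.05 in either direction, the median difference was 0.080 and 20 of 42 members were below 0. The members are therefore not shown to differ between the lines.

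The control groups, which are shared with the knockout comparisons, were split evenly in these genes: 21 members were higher and 21 lower in ZEB2 than in ZEB1 controls, with a median of 0.0010 against 0.014 over all genes. By edgeR 0 members passed in either direction (background 0% higher and 0.0195% lower), DESeq2 called 0 (0.013% higher and 0.0909% lower) as did limma-voom (0.013% lower), and 1 member was higher at an unadjusted p under 0.05 (1.57% of tested genes were). ZEB2 controls lay entirely above ZEB1 controls for 2 members (8.96% of tested genes) and below for 6 (7.66%). Tnc was the member with an unadjusted p under 0.05, at 1.23 (SE 0.55, edgeR adjusted p = 1.00), and the next smallest p belonged to Fbln1 at -0.56 (SE 0.26, edgeR adjusted p = 1.00) and Sparc at 0.45 (SE 0.21, edgeR adjusted p = 1.00).

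Libraries of one group differed in the members as a set. The median member, as log2 level relative to the mean of the 11 libraries, was 0.36 and 0.16 in the ZEB1 controls and -0.12, 0.03 and -0.20 in the ZEB1 knockouts. For ZEB2 it was 0.22, 0.01 and 0.46 in the controls and -0.13, -0.24 and -0.51 in the knockouts. ZEB2_control 3 exceeded ZEB2_control 2 for 42 of 42 members, with a median of 0.40. Trim63, a muscle ubiquitin ligase gene that rises in wasting, stood at 769.9 and 4750.0 CPM across ZEB1 controls against 4709.9, 925 and 2854 CPM across ZEB1 knockouts. It stood higher in every ZEB2 knockout, at 5157, 4973 and 7378 CPM, than in the ZEB2 controls, at 2139, 3197 and 956 CPM. Fbxo32, another ubiquitin ligase gene of wasting, stood at 3300.3, 3330.1 and 5024 CPM in ZEB2 knockouts and at 1950.0, 2147 and 973 CPM in their controls. In the ZEB1 line Fbxo32 stood at 802 and 2690 CPM in controls and at 2456, 1175 and 2335 CPM in knockouts. In ZEB1_control, ZEB1_KO and ZEB2_control the library with the least Trim63 had the highest median member, but not in ZEB2_KO. There the library with the most Trim63, ZEB2_KO 3, had the lowest median member. For Fbxo32 the library with the least had the highest median member in every group. The part of the Trim63 and Fbxo32 differences in the members' values was not tested. Between libraries alike in Ddx3y, members were lower in ZEB1_KO 1 than in ZEB1_control 2 for 37 of 42 (median -0.48), in ZEB1_KO 2 than in ZEB1_control 2 for 37 (-0.33) and in ZEB1_KO 3 than in ZEB1_control 3 for 34 (-0.37). ZEB2_KO 1 and ZEB2_KO 2 were lower than ZEB2_control 2 for 29 and 35 members (-0.17 and -0.28).

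Other genes of the matrix pathways were counted from lists. In the ZEB1 line, lower genes were 16 of 16 collagens (median -0.53), 19 of 25 laminin and matrix receptors (-0.08), 19 of 26 other proteases and inhibitors (-0.19) and 11 of 15 genes of TGF-beta matrix signalling (-0.13). By edgeR and by DESeq2 0 of them passed. The smallest p among receptors belonged to Itga3 0.69, Itga11 -0.84 and Sdc2 -0.48, and among proteases and inhibitors to Timp4 0.87, Adamts5 -0.52 and Adam12 -1.31 (log2 fold changes). In the ZEB2 line, lower genes were 16 of 16 collagens (-1.30), 19 of 25 receptors (-0.39), 21 of 26 proteases and inhibitors (-0.54) and 11 of 15 signalling genes (-0.22). By edgeR 0 passed, and by DESeq2 13 collagens, 8 receptors, 6 proteases and inhibitors and 2 signalling genes were lower and 1 receptor, Sgca, was higher (log2 fold change 0.35), a name chosen after its value was seen. Among all genes with a DESeq2 adjusted p, 8.91% were called lower and 10.5% higher in this comparison. The 2 of 15 signalling genes and the 1 of 25 receptors should be read against these shares. Among collagens the smallest p belonged to Col8a1 -1.03, Col5a2 -0.89 and Col12a1 -1.35. Sgcd, Sspn and Itga1, genes of the dystrophin complex and a collagen receptor, were at -1.10, -0.77 and -0.69. Tgfb2 -1.46 had the smallest p among signalling genes.

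Markers of cell types that make matrix were measured beside the members. In the ZEB1 line the 16 fibro-adipogenic markers had a median log2 fold change of -0.38, with 13 lower and summed levels of 2767 to 2811 CPM in controls and 1807 to 2440 CPM in knockouts. The 9 tenocyte markers, 9 of 9 lower, had a median of -0.97, and summed to 102 to 114 CPM in controls and 45.1 to 58.1 CPM in knockouts. Their smallest p belonged to Thbs4 -0.93, Fmod -1.16 and Cilp2 -1.77. Endothelial, smooth muscle and pericyte, macrophage, Schwann, adipocyte, satellite cell and myofibre lists had medians of -0.09, 0.03, -0.25, -0.46, -0.67, -0.17 and 0.06. In the ZEB2 line 13 of 16 fibro-adipogenic markers were lower (median -0.37), summing to 1794 to 2211 CPM in controls and 1884 to 2039 CPM in knockouts. The tenocyte markers were lower for 9 of 9 (-1.66), 6 of them by DESeq2 (8.91% of tested genes were), and summed to 91.1 to 189 CPM against 57.7 to 75.0 CPM. The leading markers here were Fmod -1.48, Comp -1.66 and Kera -2.44, which encode tendon matrix proteins. Smooth muscle and pericyte markers were lower for 10 of 10 (-0.49), 5 by DESeq2, and summed to 608 to 689 CPM against 476 to 491 CPM. Endothelial, macrophage, Schwann, adipocyte, satellite cell and myofibre medians were -0.17, -0.51, -0.84, -1.41, -0.70 and 0.09. DESeq2 also called lower 2 of 16 fibro-adipogenic, 2 of 12 endothelial, 1 of 12 macrophage and 1 of 8 Schwann markers. It called 2 of 6 adipocyte markers lower and 0 of 6 satellite cell markers. Of the 10 myofibre markers it called 2 lower and 2 higher (10.5% of tested genes were called higher). By edgeR 0 markers passed in either line. The markers at 0 in some library were Fcgr1 of the macrophage list and Lep of the adipocyte list. Summed levels separated without overlap, knockouts lower, for tenocyte markers in both lines, for fibro-adipogenic markers in the ZEB1 line, and for smooth muscle and pericyte, macrophage (131 to 172 CPM against 107 to 118 CPM) and satellite cell markers (28.0 to 30.6 CPM against 24.0 to 27.8 CPM) in the ZEB2 line. Single markers lower without overlap were 6 of 9 tenocyte and 4 of 16 fibro-adipogenic ones in the ZEB1 line (6.69% of tested genes). In the ZEB2 line they were 2 of 9 tenocyte and 2 of 6 satellite cell markers (22.1% of tested genes). Smooth muscle and pericyte markers did so for 7 of 10 and macrophage markers for 7 of 12. By the median marker, tenocyte groups overlapped in the ZEB2 line and fibro-adipogenic groups in the ZEB1 line. The summed myofibre markers separated the other way in the ZEB2 line, at 120375 to 129200 CPM in controls and 138368 to 146039 CPM in knockouts. The list itself was split: 6 of its 10 markers were higher and 4 lower, from -0.85 to 0.40. Without overlap, 4 were higher and 4 lower (21.3% and 22.1% of tested genes were). The part of these lists in the members' differences was not tested.

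**Figure D4:**
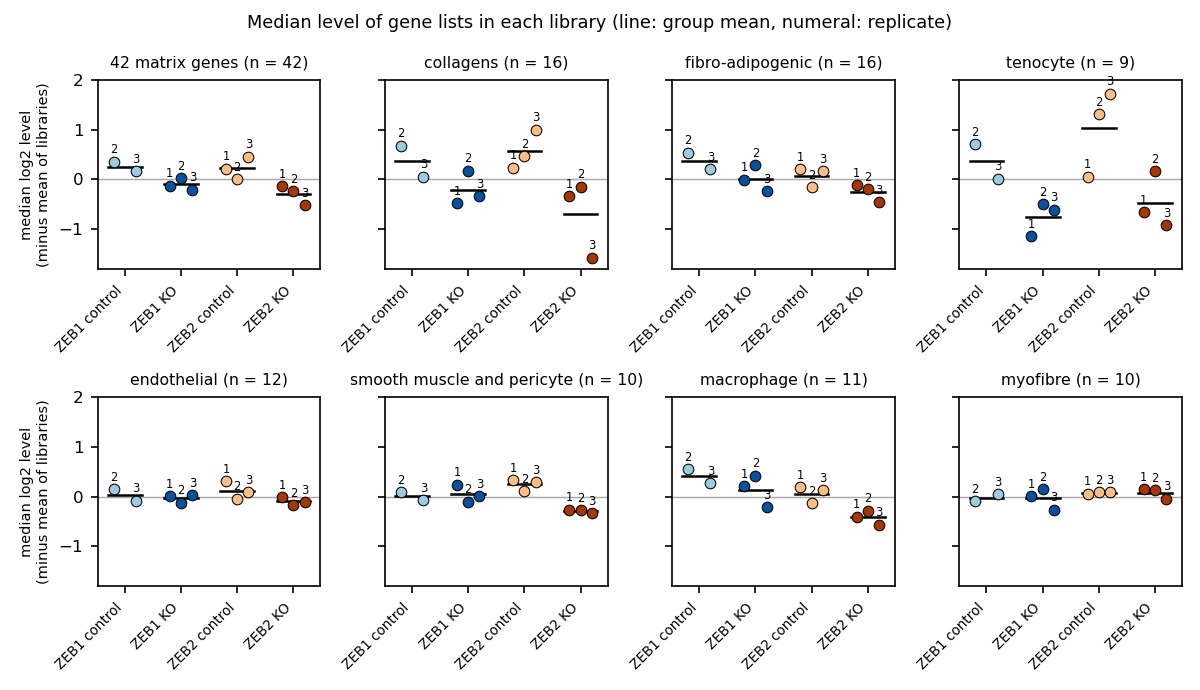
Median log2 level of the 42 matrix genes, collagens and 6 marker lists in each library, relative to the mean of the 11 libraries, by group (line: group mean). The 42 genes lie between -0.51 and 0.46, and tenocyte markers span a wider range than myofibre markers.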

How the data were processed

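Total RNA from whole gastrocnemius went into TruSeq Stranded mRNA libraries, per the labels. The deposited table holds whole-number count estimates per gene, not normalized by the authors; per the submitters' processing notes the tools included STAR, RSEM and DESeq2 (no versions) with build GRCm38. Annotation release and strandedness of counting were not given in the sources used here, so reads of overlapping or antisense genes cannot be told apart. Each pool of 2 mice counted as 1 replicate, in the group its labels give.

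Counts were tested with edgeR 4.0.16 (R 4.3.3): filterByExpr with a minimum count of 10 and total of 15, TMM scaling, 4 group means over 11 libraries, a robust quasi-likelihood fit and Benjamini-Hochberg adjustment over 15416 genes at 0.05. Those genes held 99.96% of counts. A standard error is the absolute log2 fold change over the square root of F. Alternatives were DESeq2 1.42.0, limma-voom (limma 3.58.1), other scalings and filters, a non-robust fit, the compared groups alone, a replicate block, removal of mitochondrial genes, a Ddx3y covariate and leaving out each library. Leave-one-out, block and covariate fits in DESeq2 were added after seeing the data. Deviations of log CPM from the group mean, not the levels themselves, were correlated between same-numbered control and knockout libraries. They correlated at 0.20, -0.03 and -0.31 in the ZEB2 line and at 0.46 and 0.17 in the ZEB1 line. Deviations within such small groups depend on each other, and those of the ZEB1 controls mirror each other. These values therefore cannot settle pairing, and the numbers were not taken to pair the libraries.

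Genes given in every library were the 10 members with the smallest p in each knockout comparison, the 3 smallest for the difference and for the controls, the most abundant per kilobase of each role, and Lama5 and Lox. Lama5 and Lox were chosen after their values were seen, as were the library values of Eln in the ZEB1 line and Postn in the ZEB2 line. Up to 3 genes were named per list. The members and lists were chosen with earlier results of these data known. Coordinates and lengths came from GENCODE M21 (GRCm38), and promoter windows from RefSeq (GRCm38.p6). Tests were tried on simulated data first.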

Additional observations from a re-analysis of the deposited data

How the results depend on the processing

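Members passing in the ZEB2 comparison numbered 0 by edgeR over all 11 libraries, but 17 by DESeq2, 5 with no filter on low counts and 12 with the compared groups alone. The DESeq2 count was 11 without ZEB2_control 1, 1 without ZEB2_control 3, 4 without ZEB2_KO 3 (range 1 to 17 over the libraries left out), 17 with the replicate block and 0 with the Ddx3y covariate. Timp1, which the main DESeq2 fit did not call, passed without ZEB2_control 1 and with the replicate block. In the ZEB1 comparison DESeq2 called 0, with 0 to 1 over libraries left out (1, Mmp2, without ZEB1_KO 2) and 1 with the Ddx3y covariate (Fbln1). With that covariate the ZEB2 median was -0.31, the median difference of effects 0.080 and the members below 0 in it 20. Leaving out single libraries gave edgeR medians of -0.47 to -0.29 for ZEB1 and -0.64 to -0.44 for ZEB2, 0 members passing, and 36 to 38 and 38 to 40 members lower. The difference of effects ran from -0.30 to -0.05 with 24 to 37 members lower. The control comparison ran from -0.09 to 0.11 with 14 to 26 lower. The replicate block left 0 members passing by edgeR, with medians of -0.37 for ZEB1 and -0.58 for ZEB2. Shares of all tested genes were counted for the main fits only. The cause of these changes was not tested. No listed result changed sign except the medians of the difference of effects and of the control comparison. Depth limited Timp1, at 6 to 89 counts.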
